A study of Mus musculus with 4 samples.

Results

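The DNA replication and mitosis genes are a set of 38 genes chosen by name, 15 that act in DNA replication and 23 that act in mitosis, out of 38921 gene intervals in each deposited table. Each of the 38 symbols had 1 interval, and all 38 passed the filter on low counts. They were followed in poly-A RNA of cultured mouse pancreatic fibroblasts from wild type mice (2 libraries) and from KPC mice (2 libraries), both of mixed strain, isolated by gravity separation and grown in serum-containing medium. KPC is the usual name of a pancreatic cancer model in which Cre, made in cells that express Pdx1, activates engineered alleles that include a mutant Trp53, so a fibroblast from such an animal is not itself the cell in which the alleles are meant to be switched on. The labels name KPC without its alleles, and give no ages and no passage number. They call the 2 libraries of a group biological replicates, but do not say how many animals stand behind a library. Nor do they say whether the 2 come from separate animals or cultures. The p-values below measure the spread between these libraries.

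A dividing cell copies its DNA and then separates the copies. Replication starts when the MCM helicase is loaded at origins by Cdc6 and switched on with the GINS complex, after which the clamp Pcna holds the polymerases on the template and Rrm2 and Tyms supply nucleotides. Transcription of these genes is driven by E2F factors when cyclin-dependent kinases release them from Rb proteins. The mitosis genes come on later, through the MuvB complex, Mybl2 and Foxm1, and build the cyclin B-Cdk1 kinase, the kinetochore, the spindle and the checkpoint. In cells that leave the cycle, and in cells where p53 induces the kinase inhibitor Cdkn1a, both classes are repressed together. In a fibroblast culture the level of these transcripts is commonly read as a measure of how many cells are cycling.

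The promoters show how the classes differ in sequence. RefSeq promoters of the GRCm38.p6 build, 250 bases before to 50 after the start, were at hand for 29 of the 38 members in 31 entries. In 26 of the 31 the last 20 bases lay near the start of a GENCODE M21 transcript of the gene. The other entries were kept, so not every window is shown to sit at a start. The motifs searched on both strands were the cell cycle genes homology region (CHR, with the letters TTTGAA or, in another form, with TTCGAA), through which MuvB binds, the CCAAT box of the factor NF-Y, and E2F sites (written TTCCCGC in the first form, TTGGCGC in the second, TTCGCGC in the third and TTGCCGC in the fourth). The sites of the last kind can overlap each other and the CCAAT box. Shown here, with every match in capitals, are the promoters of the 2 members of smallest p in each class that had an entry (Mcm7, Mcm2, Ccnb1 and Bub1b), and 2 chosen after the matches were seen, Mcm6 with the most E2F matches and Top2a with the most CHR matches.
Mcm7: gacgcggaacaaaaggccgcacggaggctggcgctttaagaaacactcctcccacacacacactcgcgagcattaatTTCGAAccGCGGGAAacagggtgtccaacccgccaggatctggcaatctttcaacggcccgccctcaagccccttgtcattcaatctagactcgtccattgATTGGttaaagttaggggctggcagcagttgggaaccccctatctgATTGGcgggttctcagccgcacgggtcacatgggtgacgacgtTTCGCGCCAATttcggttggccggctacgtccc
Mcm2: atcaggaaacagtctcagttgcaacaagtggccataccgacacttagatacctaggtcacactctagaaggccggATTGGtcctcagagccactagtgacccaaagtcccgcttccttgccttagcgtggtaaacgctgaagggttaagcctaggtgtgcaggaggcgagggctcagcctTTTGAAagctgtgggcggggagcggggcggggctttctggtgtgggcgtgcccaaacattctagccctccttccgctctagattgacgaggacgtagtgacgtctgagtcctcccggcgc
Mcm6: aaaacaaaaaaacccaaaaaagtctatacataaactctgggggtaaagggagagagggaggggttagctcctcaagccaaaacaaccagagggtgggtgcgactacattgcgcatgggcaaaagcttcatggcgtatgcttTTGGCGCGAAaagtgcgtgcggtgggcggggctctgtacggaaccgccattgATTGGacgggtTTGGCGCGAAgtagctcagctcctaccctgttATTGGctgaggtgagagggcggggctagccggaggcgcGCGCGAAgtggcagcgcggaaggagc
Ccnb1: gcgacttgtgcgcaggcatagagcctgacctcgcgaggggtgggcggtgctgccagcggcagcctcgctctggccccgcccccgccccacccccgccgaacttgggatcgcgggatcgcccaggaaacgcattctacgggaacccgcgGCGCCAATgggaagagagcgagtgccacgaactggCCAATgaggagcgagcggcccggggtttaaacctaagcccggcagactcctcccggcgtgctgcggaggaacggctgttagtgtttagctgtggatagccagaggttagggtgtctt
Bub1b: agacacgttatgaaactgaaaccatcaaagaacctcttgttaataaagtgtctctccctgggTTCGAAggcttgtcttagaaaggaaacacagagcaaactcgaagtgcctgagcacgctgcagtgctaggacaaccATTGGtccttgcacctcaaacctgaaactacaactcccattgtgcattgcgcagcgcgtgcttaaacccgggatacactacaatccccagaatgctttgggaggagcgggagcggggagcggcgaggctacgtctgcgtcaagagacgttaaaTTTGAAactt
Top2a: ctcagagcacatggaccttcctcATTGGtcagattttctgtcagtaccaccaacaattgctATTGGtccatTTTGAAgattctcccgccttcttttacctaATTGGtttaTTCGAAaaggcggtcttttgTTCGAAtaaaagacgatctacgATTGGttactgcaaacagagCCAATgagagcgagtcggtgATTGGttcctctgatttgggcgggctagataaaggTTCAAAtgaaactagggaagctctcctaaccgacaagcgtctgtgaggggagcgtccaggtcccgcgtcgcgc

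The printed Mcm7 promoter, the first of 2 entries, lies at chr5:138171834-138172133, Mcm2 at chr6:88898731-88899030, Mcm6 at chr1:128359656-128359955, Ccnb1 at chr13:100786437-100786736 and Top2a at chr11:99024140-99024439, all on the minus strand, and Bub1b at chr2:118597961-118598260 on the plus strand. Shares are of entries: the 19 mitosis entries stand for 18 genes and the 12 replication entries for 11, as Prc1 and Mcm7 have 2 each. The entries of Prc1 overlap and hold the same CHR and CCAAT sites, which are counted in both. A CHR match was present in 15 of 19 promoters of mitosis members (78.9%) and in 2 of 12 promoters of replication members (16.7%), against 19.2% of all 32851 promoters and 14.9% of the 16764 promoters of tested genes. E2F letters ran the other way, with a match in 7 of 12 replication promoters (58.3%) and 3 of 19 mitosis promoters (15.8%), against 9.57% of all promoters and 14.2% of those of tested genes. CCAAT was common in both classes, in 8 of 12 and 16 of 19 promoters, against 37.4% of all. CHR and CCAAT stood together in 14 of 19 mitosis promoters and 2 of 12 replication promoters, against 7.52% of all. Top2a held 4 CHR and 6 CCAAT matches and no E2F match, while Mcm6 held 5 E2F matches, some of them overlapping, and no CHR match. Ccnb1, the mitosis member of smallest p, had 2 CCAAT boxes and an E2F match that overlaps a CCAAT box. It had no match in this window to the 2 CHR forms searched, which does not show that it lacks a CHR. These matches are letters in a window and were not tested as binding sites. Other forms of the motifs were not searched, so the shares cover the listed letters only.

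Counts summed to between 22302141 and 68312367 per library, with wild type 2 the shallowest, and the members held between 0.0899% (wild type 2) and 0.122% (KPC 2) of them. A member had at least 92 counts in any library (Cdc6 in wild type 2) and at most 11222 (Kif11 in KPC 2). Fibroblast markers were abundant in every library, with 12 markers summing to between 14452 and 16441 CPM (counts scaled to the library total after TMM adjustment) and Col1a1 between 4088 and 5245 CPM. Markers of other cells were unevenly spread over the same libraries. The 12 macrophage and leukocyte markers summed to 30.4 and 218 CPM for wild type against 954 and 2065 CPM for KPC, with all 12 higher in both KPC libraries. The sums were, in the same order, for the 10 epithelial and ductal markers 30.8 and 391 against 1149 and 330.4 CPM, and for the 5 mesothelial markers 7.36 and 37.0 against 155 and 62.6 CPM. Krt19 is in both of these lists, at 5.23 and 20.1 against 64.7 and 34.9 CPM, so their sums are not separate measures. The 8 endothelial markers summed to 748 CPM in wild type 1 (18.6 to 43.6 CPM in the others), the 8 endocrine markers to 944 CPM in wild type 2 (1.77 CPM or less in the others), and the 6 Schwann and neural markers to 26.7 CPM in wild type 1 (3.67 CPM or less in the others). The 8 acinar markers summed to at most 6.09 CPM in any library, with Ptf1a at 0 counts in all 4. These are bulk cultures, so fewer cycling cells and less of a transcript per cycling cell cannot be told apart.

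Per kilobase of GENCODE M21 exon, the members spanned a wide range of levels. Pcna led with a mean over the 4 libraries of 21.7 CPM per kb, followed by the spindle motor gene Kif11 at 20.3 CPM per kb and Cdc20, an activator of the anaphase-promoting complex, at 18.2 CPM per kb. The large kinetochore gene Cenpf was lowest at 0.675 CPM per kb, with the loading factor gene Cdc6 at 0.869 and the checkpoint kinase gene Ttk at 1.16 CPM per kb. The median was 6.52 CPM per kb for replication members and 4.998 CPM per kb for mitosis members. By library the mitosis median stood at 5.51 and 3.03 CPM per kb for wild type 1 and 2 and at 5.40 and 5.51 CPM per kb for KPC 1 and 2. The replication median stood at 5.95 and 6.05, then 6.22 and 6.95 CPM per kb, so the gap between the classes on this scale was widest in wild type 2. The counts are taken to run over whole intervals, introns included, so a level per kb of exon is approximate. In KPC 2 the covered bases came to 203% of the exon bases of Gins1 and to 42.8% of those of Cenpf.

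**Figure D1:**
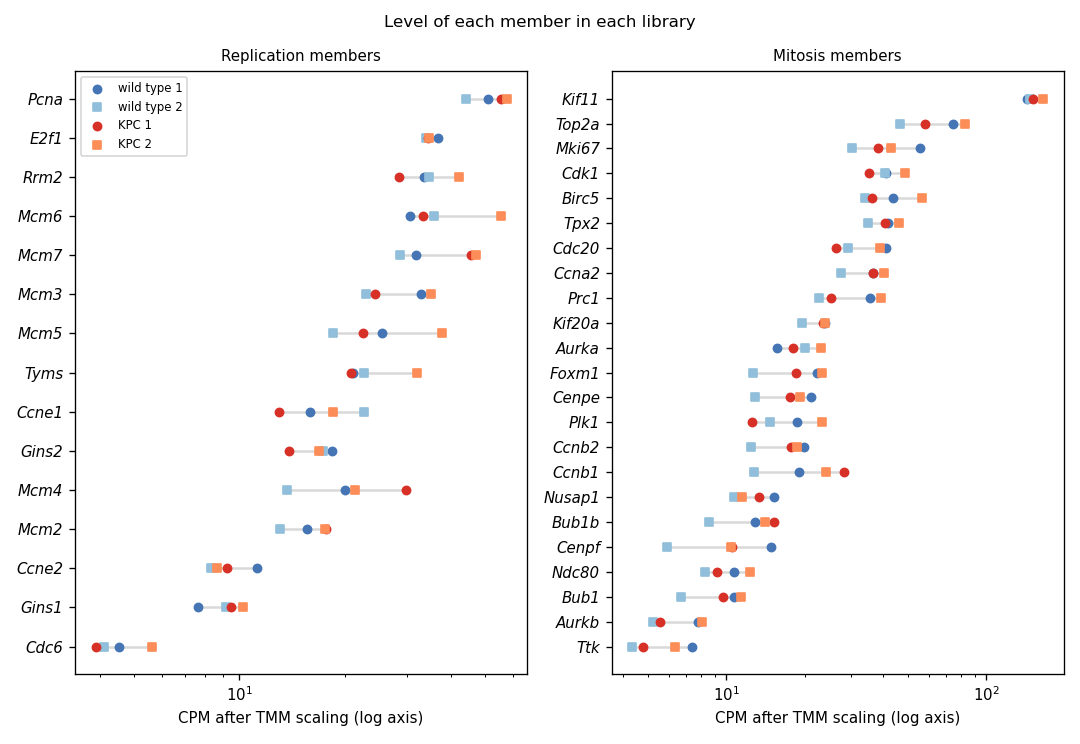
Level of each of the 38 members in each library, in CPM after TMM scaling on a log axis; blue symbols are the wild type libraries, red and orange the KPC libraries, and genes are ordered by their wild type mean. Kif11 stands apart at 143 to 165 CPM, and wild type 2 holds the lowest value for most mitosis members.

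The comparison of KPC with wild type asked whether fibroblasts of the KPC pancreas carry more transcripts of the proliferation machinery. Of the 38 members, 30 (78.9%) had a higher fitted level in KPC, against 48.8% of all 23046 tested rows, and the median log2 fold change was 0.15 against -0.01 for all rows. No member passed edgeR's quasi-likelihood test at an adjusted p of 0.05 (0 of 38, background 0% of rows), with adjusted p from 0.479 to 0.996. At an unadjusted p under 0.05 there were 2 members higher (5.26%, background 4.73%) and 0 lower (background 3.94%), Mcm7 and Ccnb1. DESeq2, which called 2.72% of rows, and limma voom also called 0 members, and the smallest adjusted p of any member under any alternative was 0.115 (Mcm7, DESeq2). Both KPC libraries lay above both wild type libraries in 8 members (21.1%, background 20.6%) and below them in 1 (2.63%, background 20.5%). The share of members separated upwards was thus that of all rows, and the share separated downwards was below it. For 26 members the log2 fold change was smaller than its own standard error. The median rested on single libraries: it was 0.00 both without wild type replicate 2 and without KPC replicate 2, each time with 19 members positive, and 0.37 without wild type replicate 1, with 36 positive.

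**Figure D2:**
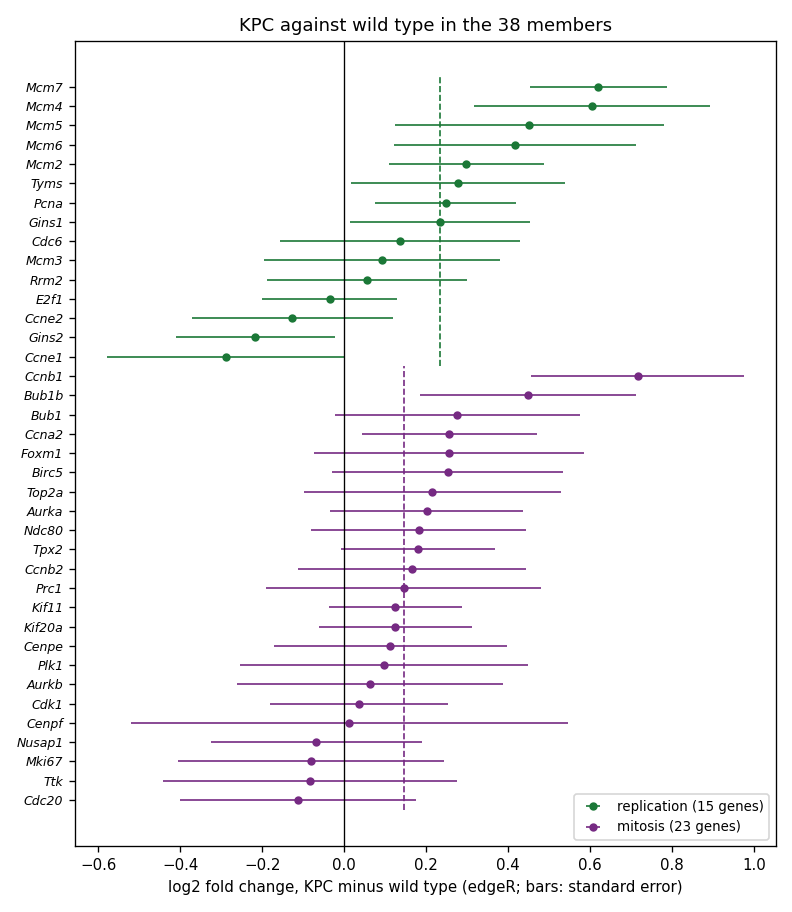
Log2 fold change of each member, KPC minus wild type, from edgeR, with bars of 1 standard error; green points are replication members, purple points mitosis members, and dashed lines the class medians (0.23 and 0.14). Ccnb1, Mcm7, Mcm4 and Mcm5 lie farthest to the right, and most bars cross 0.

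The 4 largest fitted differences among the replication members were those of Mcm7, Mcm4, Mcm5 and Mcm6, all helicase genes. Mcm7, a subunit of the MCM ring (chromosome 5, 138164584 to 138172422 in mm10), was measured at 31.8 and 28.7 CPM for wild type against 45.6 and 47.3 CPM for KPC. The groups did not overlap, and the means were 30.2 ± 2.21 and 46.4 ± 1.19 CPM (SD, n = 2 each). Its log2 fold change was 0.62 ± 0.17 (SE), with an edgeR adjusted p of 0.479, and it stayed between 0.55 and 0.70 when any single library was left out. The Mcm7 interval shares 63 bases with Cops6 and 420 with Ap4m1, and holds 3 microRNA genes. Ap4m1 was also higher in both KPC libraries, at 2.57 and 2.95 CPM for wild type against 4.32 and 3.80 CPM for KPC. Cops6 overlapped, at 65.2 and 89.3 CPM against 63.2 and 70.2 CPM. A processed pseudogene, Gm5487, matches Mcm7 over 2157 bases at 97.7% identity and has no row of its own. The part of these genes in the Mcm7 counts was not tested.

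Mcm4 stood at 19.9 and 13.6 CPM for wild type against 29.8 and 21.3 CPM for KPC, a log2 fold change of 0.60 ± 0.29 (edgeR adjusted p = 0.624), with KPC 1 the high library. Mcm2 was at 15.5 and 13.0 CPM against 17.6 and 17.5 CPM, both KPC libraries above both wild type libraries by a small margin. Mcm6 was at 30.7 and 35.7 CPM against 33.2 and 55.3 CPM, so that KPC 2 alone was high. The same held for Mcm5, where KPC 2 reached 37.8 CPM and the other 3 libraries lay between 18.5 and 25.5 CPM. Mcm3 overlapped fully, at 32.8 and 22.9 CPM against 24.3 and 35.1 CPM. All 6 subunits of this ring act in equal numbers in the helicase. Their fitted differences ran from 0.09 (Mcm3) to 0.62 (Mcm7) on the log2 scale, with standard errors of 0.17 to 0.33.

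The other licensing genes were closer to level. Gins1 stood at 7.61 and 9.17 CPM for wild type against 9.43 and 10.3 CPM for KPC, a narrow separation. Gins2, which encodes another subunit of the same complex, was the 1 member lower in both KPC libraries, at 18.4 and 17.3 CPM against 13.9 and 16.8 CPM (log2 fold change -0.22 ± 0.19, edgeR adjusted p = 0.791). The Gins2 interval lies wholly inside that of Gm20388 and shares 2757 bases with Gse1, so its counts are uncertain. Cdc6 was low and overlapped, from 3.89 CPM in KPC 1 to 5.63 CPM in KPC 2.

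Pcna, the replication member with the highest mean CPM, stood at 50.9 and 44.2 CPM for wild type against 55.4 and 57.6 CPM for KPC (log2 fold change 0.25 ± 0.17, edgeR adjusted p = 0.722). The groups did not overlap, by a margin smaller than the gap between the wild type libraries. Rrm2, the small subunit of ribonucleotide reductase, and the thymidylate synthase gene Tyms were high in KPC 2 alone, at 42.3 and 32.1 CPM, with the other 3 libraries between 28.5 and 34.7 CPM and between 20.8 and 22.7 CPM.

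The regulators of the G1 to S transition did not share the direction of the helicase genes. E2f1, the activator of the class, was level at 36.8 and 33.9 CPM for wild type against 34.4 and 34.5 CPM for KPC (log2 fold change -0.04 ± 0.16, edgeR adjusted p = 0.974). Ccne1, the cyclin E1 gene, stood at 15.8 and 22.6 CPM against 12.9 and 18.5 CPM, with the libraries of a group farther apart than the group means. Ccne2 was at 11.2 and 8.27 CPM against 9.21 and 8.65 CPM, and its interval shares 5621 bases with Ints8. All 3 regulators had a negative fitted value and overlapped between the groups.

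Among the mitosis members, Ccnb1, which encodes cyclin B1 (chromosome 13, 100778651 to 100786570 in mm10), stood at 19.1 and 12.8 CPM for wild type against 28.3 and 24.1 CPM for KPC. Both KPC libraries were above both wild type libraries, with means of 15.9 ± 4.45 and 26.2 ± 2.95 CPM (SD, n = 2 each). The log2 fold change of 0.72 ± 0.26 (SE) was the largest of the 38, with an edgeR adjusted p of 0.560, and it lay between 0.46 and 1.04 with single libraries left out. Processed pseudogenes with near-identical sequence exist for this gene. One of them, Gm12856, matches over 1294 bases at 98.1% identity, and its row held 50.6% as many counts as Ccnb1 itself, at 9.34 and 6.66 CPM for wild type against 14.1 and 12.6 CPM for KPC.

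The other genes of mitotic entry differed less. Ccnb2, the cyclin B2 gene, stood at 19.96 and 12.4 CPM for wild type against 17.7 and 18.7 CPM for KPC, where wild type 2 was low and the rest were close. Ccna2, the cyclin A2 gene, showed the same shape at 36.7 and 27.5 CPM against 36.5 and 40.2 CPM, and shares 863 bases with Exosc9. Cdk1, the kinase that both B-type cyclins bind, was at 41.2 and 40.6 CPM against 35.3 and 48.6 CPM, so its KPC libraries bracketed the wild type pair (log2 fold change 0.04 ± 0.22, edgeR adjusted p = 0.982). Foxm1, the transcription factor of the class, was at 22.3 and 12.6 CPM against 18.5 and 23.3 CPM, with wild type 2 again the low library.

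The usual markers of cycling cells did not separate the groups. Mki67, which encodes the Ki-67 antigen, stood at 55.5 and 30.4 CPM for wild type against 38.4 and 42.9 CPM for KPC, with both KPC values inside the wild type range. Its log2 fold change was -0.08 ± 0.32 (edgeR adjusted p = 0.969) and ran from -0.45 without wild type replicate 2 to 0.42 without wild type replicate 1. Top2a, the topoisomerase that untangles chromosomes, was at 74.2 and 46.6 CPM against 57.9 and 82.4 CPM, again with wild type 2 lowest (log2 fold change 0.21 ± 0.31, edgeR adjusted p = 0.893). For both genes the wild type libraries differed by more than the group means did.

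Of the checkpoint genes, Bub1b, which encodes the checkpoint protein BubR1, stood at 12.9 and 8.54 CPM for wild type against 15.3 and 14.01 CPM for KPC, with no overlap (log2 fold change 0.45 ± 0.26, edgeR adjusted p = 0.675). Its partner gene Bub1 overlapped at 10.7 and 6.66 CPM against 9.69 and 11.4 CPM. Ttk was at 7.36 and 4.34 CPM against 4.76 and 6.33 CPM, and Cdc20 at 41.1 and 29.3 CPM against 26.4 and 38.8 CPM, both with a fitted value below 0. Cdc20 has a processed pseudogene, Gm7856, whose row held 33.4% as many counts.

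Kif11 was the most abundant mitosis member by CPM, at 143 and 147 CPM for wild type against 150.4 and 165 CPM for KPC, a separation with a log2 fold change of 0.12 ± 0.16 (edgeR adjusted p = 0.872). Tpx2, a spindle assembly factor that activates Aurora A, was at 41.7 and 34.9 CPM against 40.6 and 46.1 CPM, and Nusap1, which binds spindle microtubules, at 15.2 and 10.7 CPM against 13.3 and 11.4 CPM. In all 3 the difference between groups was within its standard error. The motor gene Kif20a and the midzone organizer gene Prc1 overlapped, with fitted values of 0.12 and 0.14, and Kif20a shares 2314 bases with Cdc23. The 4 members of the kinase and passenger group, Plk1, Aurka, Aurkb and the survivin gene Birc5, all overlapped, with fitted values from 0.06 to 0.25, and each was highest in KPC 2. Among the kinetochore genes Cenpe, Cenpf and Ndc80, fitted values ran from 0.01 to 0.18. Cenpf, named after its values were seen, had the widest error of the 38 (0.53) because the wild type libraries stood at 14.8 and 5.90 CPM, with both KPC libraries between them at 10.5 CPM.

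Compared as classes, the replication members had a median log2 fold change of 0.23 (11 of 15 positive, range -0.29 to 0.62) and the mitosis members 0.14 (19 of 23 positive, range -0.11 to 0.72). With single libraries left out the replication median ran from -0.041 to 0.32 and the mitosis median from -0.057 to 0.42. The difference of the medians was 0.09, and it ran from -0.20 without wild type replicate 1 to 0.21 without wild type replicate 2. Of the members separated upwards, 5 were replication genes (Mcm2, Mcm4, Mcm7, Gins1 and Pcna), or 33.3% of their class, and 3 were mitosis genes (Ccnb1, Bub1b and Kif11), or 13.0%, against 20.6% of all rows.

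The libraries themselves differed along the mitosis class more than the groups did. Each value of log2 CPM was set against the gene's mean over the 4 libraries. The median deviation of the mitosis members was 0.18 and -0.34 for wild type 1 and 2 and -0.01 and 0.22 for KPC 1 and 2, so a library of each group stood high. Wild type 2 was the lowest library for 18 of 23 mitosis members (78.3%, against 26.4% of all rows) and the highest for 0. KPC 2 was the highest for 14 of 23 (60.9%, against 19.0% of all rows) and the lowest for 0. In the replication class the medians were -0.03, -0.13, -0.16 and 0.18 in the same order, with KPC 2 the highest library for 9 of 15 members and wild type 2 the lowest for 8. The replication median less the mitosis median was -0.21 and 0.22 for the wild type libraries and -0.15 and -0.04 for KPC, so both KPC values lay between the wild type values.

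The single most frequent order, shared by 12 of 38 members, ran wild type 2, KPC 1, wild type 1, KPC 2 from lowest to highest. Between the 2 wild type libraries the median log2 difference of mitosis members (wild type 2 minus wild type 1) was -0.56, with 21 of 23 lower in wild type 2, while over all rows it was -0.02. Between KPC 2 and KPC 1 it was 0.23, with 19 of 23 higher in KPC 2. All 23 mitosis members were higher in KPC 2 than in wild type 2, by a median of 0.57, yet 19 of 23 were lower in KPC 1 than in wild type 1, by a median of 0.22. The sign of the contrast in this class thus depended on which libraries were paired. For replication members the gap between the wild type libraries was smaller, at a median of -0.14, with 10 of 15 lower in wild type 2.

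The order of the libraries by these members was not that of the marker sums given above. Macrophage and leukocyte markers were lowest in wild type 1, then wild type 2, and highest in KPC 2, whereas the members' medians over both classes were 0.08, -0.28, -0.05 and 0.21. The library with the lowest mitosis values, wild type 2, was also the one with the endocrine markers and the fewest counts, and wild type 1 was the one with the endothelial markers. The part of other cells, or of depth, in the members' values was not tested.

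**Figure D3:**
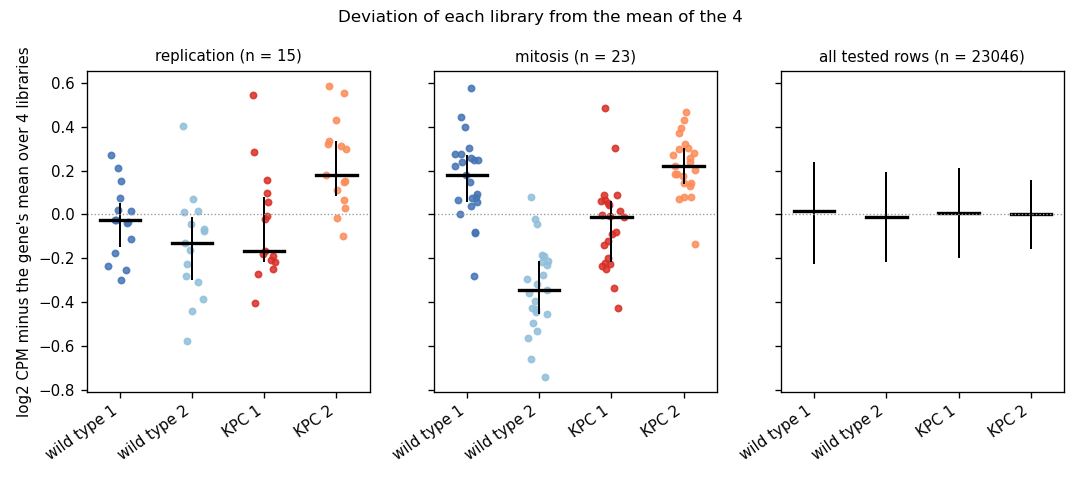
Deviation of each gene's log2 CPM from its mean over the 4 libraries, for the 15 replication members, the 23 mitosis members and all 23046 tested rows; points are genes (for all rows only the summary is drawn), thick lines medians and thin lines the interquartile range. Mitosis members lie low in wild type 2 (median -0.34) and high in wild type 1 and KPC 2, while the medians of all rows stay near 0.

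Further genes of the same processes, from lists that do not contain the members, were tilted the same way. Of 44 other replication genes, 32 had a positive fitted value (72.7%, against 48.8% of all rows), with a median log2 fold change of 0.18; 19 were higher in both KPC libraries (43.2%, background 20.6%) and 3 lower (6.82%, background 20.5%). None of the 44 passed edgeR's test; 3 were higher at an unadjusted p under 0.05 (6.82%, background 4.73%) and 0 lower. They were Fen1, the flap nuclease gene, at 23.9 and 25.1 CPM for wild type against 36.0 and 36.9 CPM for KPC; the Cdt1 inhibitor gene Gmnn at 8.54 and 10.8 CPM against 16.7 and 14.3 CPM; and Dbf4, which activates the Cdc7 kinase, at 18.7 and 16.4 CPM against 23.97 and 25.4 CPM. In these 3 genes both KPC libraries were above both wild type libraries. The KPC libraries were close to each other in Fen1 and Dbf4 but not in Gmnn. The log2 fold changes of Fen1, Gmnn and Dbf4 were 0.57 ± 0.16, 0.68 ± 0.22 and 0.49 ± 0.18. With single libraries left out, the list's median ran from 0.05 (without KPC replicate 2) to 0.31 (without wild type replicate 1).

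Of 50 other mitosis genes, 38 had a positive fitted value, with a median of 0.18; 15 were higher in both KPC libraries (30.0%, background 20.6%) and 1 was lower (2%, background 20.5%). None passed edgeR's test, with 2 higher (4%, background 4.73%) and 1 lower (2%, background 3.94%) at an unadjusted p under 0.05. The cohesion factor gene Cdca5 stood at 5.31 and 5.81 CPM for wild type against 10.7 and 9.66 CPM for KPC (log2 fold change 0.87 ± 0.22, edgeR adjusted p = 0.438). Incenp, the scaffold of the Aurora B complex, was at 27.1 and 20.9 CPM against 37.0 and 35.5 CPM. Kif18a, a motor that limits chromosome movement at the metaphase plate, went the other way, at 8.66 and 5.72 CPM against 3.59 and 3.51 CPM (log2 fold change -1.02 ± 0.30, edgeR adjusted p = 0.514). The list's median was 0.06 without wild type replicate 2 and 0.38 without wild type replicate 1.

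The factors that control these classes were mixed. Of 18 E2F, Rb and MuvB factors, 11 were positive, with a median of 0.02 and 0 past edgeR's test; 1 was higher at an unadjusted p under 0.05 (5.56%, background 4.73%). With upper quartile factors 7 of the 18 were positive and the median was -0.051. The gene higher at an unadjusted p under 0.05 was E2f8, an atypical E2F, at 1.85 and 1.48 CPM for wild type against 4.11 and 2.67 CPM for KPC. In both KPC libraries 5 of the 18 were higher (27.8%, background 20.6%) and 2 were lower (11.1%, background 20.5%). Among the higher was Mybl2, at 9.34 and 10.6 CPM for wild type against 11.3 and 16.3 CPM for KPC. The 2 lower were Lin37, a MuvB subunit needed for repression, at 6.30 and 6.44 CPM against 4.13 and 4.59 CPM, and E2f6 at 15.4 and 15.6 CPM against 9.93 and 12.7 CPM. Rb1 overlapped, at 18.2 and 12.5 CPM against 13.8 and 17.5 CPM.

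Of the inhibitors of the cyclin-dependent kinases, Cdkn1a, a target of p53, stood at 191 and 267 CPM for wild type against 149 and 139 CPM for KPC, lower in both KPC libraries (log2 fold change -0.67 ± 0.23, edgeR adjusted p = 0.541, unadjusted p = 0.0333). Cdkn1a was highest in wild type 2, the library with the lowest mitosis values, and differed little between KPC 1 and KPC 2. A link between Cdkn1a and the members' values was not tested. Cdkn2a, the locus of p16Ink4a and p19Arf, which a count over the gene cannot tell apart, was at 38.5 and 15.4 CPM against 67.4 and 44.4 CPM (1.05 ± 0.49, edgeR adjusted p = 0.623). Cdkn1b was at 14.4 and 10.96 CPM against 18.1 and 17.97 CPM. Of the 7 inhibitors, 6 had a positive fitted value (85.7%, against 48.8% of all rows), and 4 to 5 had one with single libraries left out. In both KPC libraries 3 were higher (42.9%, background 20.6%), 1, Cdkn1a, was lower (14.3%, background 20.5%), and 3 overlapped; none passed edgeR's test.

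Of the 9 G1 cyclins, kinases and their activators, 4 were positive and 5 negative, with a median of -0.04 that turned to 0.18 under limma voom, to 0.16 with the replicate block and to 0.22 without wild type replicate 1, and 0 past edgeR's test (0 higher and 1 lower, or 11.1%, at an unadjusted p under 0.05, background 4.73% and 3.94%). Ccnd2, a D-type cyclin gene, stood at 277 and 126 CPM for wild type against 76.0 and 81.0 CPM for KPC (log2 fold change -1.36 ± 0.40, edgeR adjusted p = 0.518), lower in both KPC libraries. Ccnd1 varied by library with no order by group, at 338 and 18.3 CPM against 163 and 83.9 CPM. Its lowest value was in wild type 2, the library lowest in most mitosis members, and a link with those members was not tested. Ccnd3 was at 50.7 and 54.6 CPM against 41.1 and 41.0 CPM, and Myc at 19.8 and 19.9 CPM against 27.9 and 24.98 CPM (0.41 ± 0.17, edgeR adjusted p = 0.591). Cdk4, the kinase of the D-type cyclins, was level at 120 and 126 against 123 and 116 CPM.

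**Figure D4:**
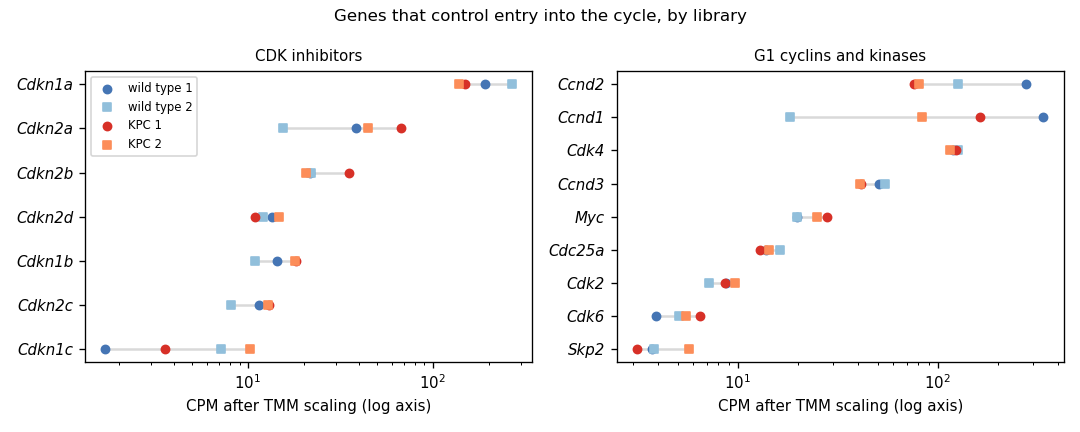
CPM after TMM scaling, on a log axis, of 7 CDK inhibitor genes and 9 G1 cyclin, kinase and activator genes in each library; blue symbols are wild type, red and orange KPC, and genes are ordered by their wild type mean. Cdkn1a and Ccnd2 lie lower in both KPC libraries, and Ccnd1 spans 18.3 to 338 CPM.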

How the data were processed

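RNA of 4 libraries, 2 wild type and 2 KPC, grouped by their labels, was analysed from 1 deposited table per library. Per the submitters' processing notes, the tools were TopHat2 2.0.3, SAMtools 0.1.18, FastQC 0.10.1 and bedtools, on mm10/GRCm38, with no roles stated. The deposited values are counts per gene interval; that they are raw was read from the values (whole numbers, totals that differ). The deposited fraction of bases covered equals covered bases over interval length and was used only to compare coverage with exon length. No strand is recorded, so overlapping genes cannot be told apart.

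Counts were fitted with edgeR 4.0.16 (R 4.3.3; filterByExpr with a minimum count of 10, TMM factors, two-sided quasi-likelihood test, Benjamini-Hochberg over 23046 rows at 0.05) with 2 residual degrees of freedom. Each standard error is the absolute unshrunk difference over the square root of F. An exact test of 2 against 2 libraries cannot go below p = 0.333 and was not used. The chi-square per degree of freedom between libraries of a group was 142 and 75.2, so no library repeated another. Log2 CPM used a prior count of 2. Scripts were tested on simulated data. Near-identical copies (at least 95% identity over 100 bases) were sought with blastn 2.17.0 in GENCODE M21 transcripts. Alternatives were RLE, upper quartile or no factors, 2 other filters, DESeq2 1.42.0, limma voom 3.58.1, a replicate block, a threshold of 0.10, a shorter promoter window and each library left out. Figures used matplotlib 3.10.9.

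The members and lists were chosen with earlier results of these data known. Values in every library were given for the 5 members of smallest p and the 2 of highest CPM per class, 7 regulators or markers, and members whose sign opposed their class median. Other members, and Cdk4, were named beside them after their values were seen. The same holds for the fibroblast markers Lum, Thy1, Vim and Pdgfrb. The macrophage marker Adgre1 was looked up as Emr1, its older symbol, after the tables were read.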

Additional observations from a re-analysis of the deposited data

How the results depend on the processing

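No member passed the threshold under any alternative run. Counts over all genes moved: DESeq2 called 333 higher and 294 lower, and with single libraries left out (the remaining library being taken to vary as the other 2 do) edgeR called 0 to 429 higher and 0 to 406 lower, the highest counts without wild type replicate 2; without wild type replicate 1 it called 5 lower. The number of positive members ran from 19 to 36 and the replication median from -0.041 to 0.32. With the replicate number as a block the members' median was 0.17 and 0 members were called. The labels number the biological replicates but do not say whether libraries of the same number were handled together. Same-numbered libraries correlated at 0.14 in their deviations. Composition factors moved the median of all rows by under 0.1. With upper quartile factors 26 members were positive, and Rrm2 (-0.0058), Cdk1 (-0.026), Aurkb (-0.00015) and Cenpf (-0.058) turned negative. RLE or no factors, both other filters, DESeq2, voom and the block turned no member. Leaving out single libraries turned 24 members in sign at least once and 14 never. The 14 were Ccne1, Mcm2, Mcm4, Mcm5, Mcm7, Gins1, Gins2, Pcna, Ccna2, Ccnb1, Aurka, Bub1b, Kif11 and Tpx2. Sign changes were not counted over all rows. Where the groups did not overlap, a sign change could hardly occur, since leaving out a library keeps the order of the groups. This was so for Mcm2, Mcm4, Mcm7, Gins1, Gins2, Pcna, Ccnb1, Bub1b and Kif11, all among the 14. The cause of the sign changes was not tested. The log2 fold changes of the 24 ran as follows: E2f1 from -0.092 to 0.027, Ccne2 from -0.32 to 0.11, Cdc6 from -0.16 to 0.39, Mcm3 from -0.20 to 0.38, Mcm6 from -0.0015 to 0.74, Rrm2 from -0.26 to 0.32, Tyms from -0.072 to 0.56 and Mki67 from -0.45 to 0.42; Top2a from -0.080 to 0.59, Foxm1 from -0.092 to 0.73, Ccnb2 from -0.13 to 0.55, Cdk1 from -0.22 to 0.25, Plk1 from -0.42 to 0.48, Aurkb from -0.23 to 0.38, Birc5 from -0.099 to 0.54 and Bub1 from -0.017 to 0.66; Ttk from -0.41 to 0.36, Cdc20 from -0.42 to 0.16, Cenpe from -0.19 to 0.51, Cenpf from -0.49 to 0.83, Ndc80 from -0.046 to 0.38, Kif20a from -0.011 to 0.28, Nusap1 from -0.30 to 0.21 and Prc1 from -0.22 to 0.51. With the promoter window starting 150 bases before the start, the shares of mitosis promoters with CHR, CCAAT or E2F were unchanged. In replication promoters CHR fell from 16.7% to 8.33%, CCAAT from 66.7% to 58.3% and E2F from 58.3% to 50.0%. These lie within the 95% Wilson interval of the longer window. That interval is wide at 12 entries and does not measure a change between nested windows. CHR and CCAAT together then stood in 0 of 12 replication promoters, and CHR in 3956 of all 32851. The median of the 9 G1 cyclins, kinases and activators turned positive under limma voom (0.18), the replicate block (0.16) and without wild type replicate 1 (0.22). That of the 18 E2F, Rb and MuvB factors turned to -0.051 with upper quartile factors. Libraries of a group differed by far more than counting error, by a chi-square per degree of freedom of 142 in wild type and 75.2 in KPC over all rows.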

Other observations

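Several members have processed pseudogenes whose rows carried counts. Pcna-ps2, which matches Pcna over 781 bases at 99.2% identity, held 92.6% as many counts as Pcna and stood at 46.8 and 41.9 CPM for wild type against 51.4 and 53.2 CPM for KPC, the same library order as Pcna. Gm7856, the pseudogene of Cdc20, stood at 13.0 and 9.26 CPM against 9.89 and 12.8 CPM. Gm9430, which matches Cdc6 over 1528 bases, was at 0.742 and 0.447 CPM against 0.459 and 0.885 CPM and held 14.4% as many counts as Cdc6. Gm15654, which matches Mcm6 over 182 bases, held 7.64% as many. Whether such rows hold transcripts of their own or reads of the member was not tested.

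Members were spread over 17 chromosomes. Chromosome 2 held 8 of the 38 (Bub1, Bub1b, Nusap1, Pcna, Aurka, E2f1, Gins1 and Tpx2), or 21.1%, where 8.79% of tested symbols lie there; this was noticed after the positions were seen and was not tested. Their values did not go one way: Bub1b, Gins1 and Pcna were higher in both KPC libraries, as were 20.6% of all rows, and the other 5 overlapped.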
